A study of Mus musculus with 12 samples.

Results

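The 10 genes described here cover the path of glucose carbon from the plasma membrane to lactate and a few further genes known to respond to low oxygen. Slc2a1 and Slc2a3 (the transporters GLUT1 and GLUT3) let glucose into the cell. Ldha and Ldhb make the subunits of lactate dehydrogenase, and Slc16a1 and Slc16a3 (MCT1 and MCT4) carry lactate across the plasma membrane. Pdk1 makes a kinase that inactivates pyruvate dehydrogenase, Bnip3 makes a mitochondrial outer membrane receptor for mitophagy, Ero1l makes the oxidase that renews protein disulfide isomerase in the endoplasmic reticulum (ER), and P4ha1 makes a catalytic subunit of collagen prolyl 4-hydroxylase. The genes were taken by name, with no threshold on their values, although the choice was made with earlier results of these data known. They come from a table with 1 line per direct RNA read. Reads were kept when their tail estimate was tagged PASS, their transcript was of the class mRNA and their gene name was 1 of the 10. This left 6567 reads of the 10 genes among 4625696 kept reads of 14664 genes.

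The cells were P19, a male mouse embryonal carcinoma line that takes a neuronal fate when treated with retinoic acid. Poly(A) RNA was sequenced directly on nanopores in 12 libraries, 3 biological replicates at each of 4 days. The D0 libraries were made from undifferentiated wild-type cells kept in serum-containing DMEM with 4500 mg/L glucose. The D2, D4 and D6 libraries were made from wild-type cells after 2, 4 and 6 days in NDiff 227 medium with 500 nM retinoic acid on poly-L-lysine, with fresh medium each day. All groups are 1 cell line of 1 genotype, and no differentiated culture was kept in the D0 medium. The medium and the differentiation therefore cannot be told apart in any comparison with D0, nor can the day and the sequencing run, because each of the 13 runs held libraries of a single day. Days follow the library labels: all 3 runs of the D0 libraries also have D2 in their name, and 2 runs of the D6 libraries name no day.

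The kept reads ranged from 472441 to 642548 per library at D0, from 130162 to 257197 at D2, from 278687 to 474472 at D4 and from 305517 to 472514 at D6. Levels are given as CPM, the reads of a gene per 1000000 kept reads after the libraries were scaled by the trimmed mean of M values (TMM). In direct RNA sequencing each read is 1 molecule read from its 3' end, so levels were not divided by transcript length. The summed level of 10 markers of undifferentiated cells, such as Pou5f1, of which 7 had reads and Dppa5a, Fgf4 and Zfp42 were at 0, was 1874 to 2098 CPM in the D0 libraries and 12.8 to 19.5 at D6, and that of 12 neuronal markers, such as Tubb3 and Map2, was 513 to 559 at D0 and 2790 to 3098 at D6. At D2 the undifferentiated sum was 59.5 to 78.4 and the neuronal sum 290 to 497, both below D0. Neural progenitor markers went from 439 to 513 at D0 over 587 to 762 at D2 to 1069 to 1156 at D6. Endoderm markers reached at most 7.43 CPM in a library, with Sox17, Gata4, Afp and Ttr at 0 reads in all libraries, mesoderm markers at most 11.0, with T and Mesp1 at 0, and glial markers at most 35.2, with Aqp4 and S100b at 0. The summed level of 7 fibroblast and muscle markers, of which Myog was at 0 and 6 had reads, was 60.3 to 68.2 at D0, 14.7 to 14.9 at D2, 7.49 to 23.4 at D4 and 7.79 to 12.8 at D6. The share of kept reads on mitochondrial genes was 3.86% to 4.51% at D0, 5.49% to 6.82% at D2, 7.29% to 8.51% at D4 and 8.28% to 10.5% at D6. Both the marker levels and the mitochondrial share moved with the day, and their part in the results below was not tested. In these bulk libraries, fewer cells of a type and less RNA per cell cannot be told apart.

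Cells break glucose down to pyruvate in the cytosol and either oxidize the pyruvate in mitochondria or reduce it to lactate, which regenerates NAD+ for glycolysis. Pluripotent and embryonal carcinoma cells are known for rapid glycolysis with lactate release, and neurons for a larger part of oxidative metabolism. Hypoxia-inducible factors (HIFs) are pairs of an oxygen-regulated alpha subunit and ARNT, and they bind a core of ACGTG or GCGTG in the control regions of many genes of this path, Ldha, Slc2a1, Pdk1, Bnip3 and P4ha1 among them.

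The promoter sequences are described first, for the genes with a window. RefSeq promoter windows, 250 bases before to 50 bases after a gene's start on GRCm38.p6, were found for 9 of the 10 genes, with Ero1l matched under its newer symbol Ero1a. Slc2a3 was not matched. ACGTG and GCGTG were searched on both strands, so the palindrome CACGTG counts as 2 matches. The first window of all 9 genes held at least 1 match and that of 8 held at least 2, whereas 43.8% of all 32851 windows held at least 1 and 20.6% at least 2. The first Ldha window held 7 matches, the Bnip3 and Slc16a1 windows 5 each, the Ero1l and P4ha1 windows 3 each, the Slc2a1, Slc16a3 and first Pdk1 windows 2 each and the Ldhb window 1. Windows with at least 5 matches made up 1.66% of all windows. Below are the 3 windows with the most matches and that of Ldhb, the only 1 of the 10 genes that was higher at D6 than at D0. Letters in capitals mark the matches on either strand, and each sequence is given 5' to 3' on the gene's own strand.
Ldha, chr7:46845554-46845853, plus strand: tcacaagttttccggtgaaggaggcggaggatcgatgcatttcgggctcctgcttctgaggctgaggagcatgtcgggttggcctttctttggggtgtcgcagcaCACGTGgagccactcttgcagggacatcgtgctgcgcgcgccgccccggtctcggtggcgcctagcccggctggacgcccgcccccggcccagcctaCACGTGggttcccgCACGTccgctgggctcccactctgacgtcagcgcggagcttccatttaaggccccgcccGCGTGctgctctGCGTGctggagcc
Bnip3, chr7:138909457-138909756, minus strand: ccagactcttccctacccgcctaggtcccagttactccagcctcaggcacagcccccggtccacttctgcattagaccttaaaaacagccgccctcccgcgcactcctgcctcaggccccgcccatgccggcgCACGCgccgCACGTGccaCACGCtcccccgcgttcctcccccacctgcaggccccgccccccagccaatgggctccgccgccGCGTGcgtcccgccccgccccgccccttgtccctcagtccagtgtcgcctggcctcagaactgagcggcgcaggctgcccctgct
Slc16a1, chr3:104638414-104638713, plus strand: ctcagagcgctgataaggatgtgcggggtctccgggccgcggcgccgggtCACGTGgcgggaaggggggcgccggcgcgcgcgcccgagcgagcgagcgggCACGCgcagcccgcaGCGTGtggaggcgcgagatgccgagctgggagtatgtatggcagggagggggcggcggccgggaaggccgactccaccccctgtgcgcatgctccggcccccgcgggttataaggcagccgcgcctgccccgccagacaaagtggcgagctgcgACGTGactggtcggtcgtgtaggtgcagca
Ldhb, chr6:142507908-142508207, minus strand: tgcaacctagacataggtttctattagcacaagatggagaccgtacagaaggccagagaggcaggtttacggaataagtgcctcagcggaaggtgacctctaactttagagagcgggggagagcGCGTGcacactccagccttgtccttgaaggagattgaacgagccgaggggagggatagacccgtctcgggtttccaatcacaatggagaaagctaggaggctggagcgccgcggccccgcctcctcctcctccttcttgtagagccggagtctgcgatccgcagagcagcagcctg
These matches are letters in a window and not measured binding. Several of the genes were known to hold this core when the 10 were named, and the windows were not matched for base composition. The difference from all windows is therefore no test of HIF control, and a link between the matches and the levels was not tested. Of the 3 genes with the most matches, Ldha and Bnip3 had lost most of their reads by D2, whereas Slc16a1 had not passed the test by D2.

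The first comparison asks how the genes stood after 2 days of differentiation. At D2, 8 of the 10 genes were lower than at D0, 1 was higher and 1 did not pass the test, at an adjusted p of at most 0.05 in a limma-voom fit over all 9355 genes with at least 30 reads. Over all genes tested, 6.06% were lower and 4.72% higher at D2. At D4, 8 of the 10 genes were lower and none higher, beside 12.5% and 12.9% of all genes. At D6, 9 were lower and 1 higher, beside 18.1% and 19.4%. The median log2 fold change of the 10 genes went from -2.12 (D2) over -2.85 (D4) to -3.08 (D6), and that of all genes tested was -0.04, 0.01 and 0.02. Together, the 10 genes made up 0.269% to 0.297% of the kept reads at D0, 0.0791% to 0.0925% at D2, 0.0535% to 0.0609% at D4 and 0.0478% to 0.0614% at D6.

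**Figure D1:**
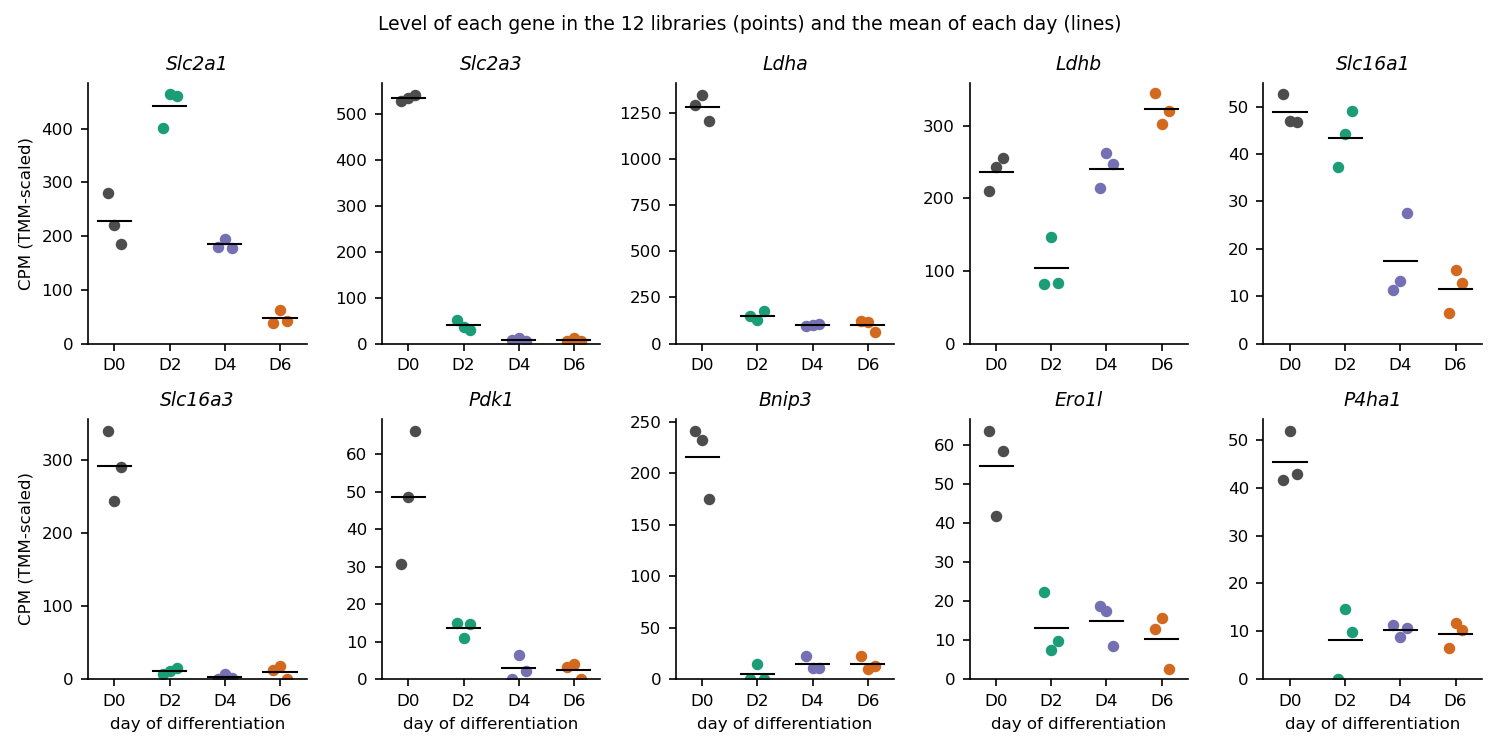
Level of each of the 10 genes in CPM (y axis, TMM-scaled, from 0, with its own scale in each panel) in the 3 libraries of D0, D2, D4 and D6 (x axis). Points are libraries and lines are day means. For Slc2a3, Ldha, Slc16a3, Pdk1, Bnip3, Ero1l and P4ha1 all later libraries sit below the D0 libraries. How many of all genes separate in this way was not counted. Slc2a1 peaks at D2, Ldhb dips at D2 and is highest at D6, and Slc16a1 falls only after D2.

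**Figure D2:**
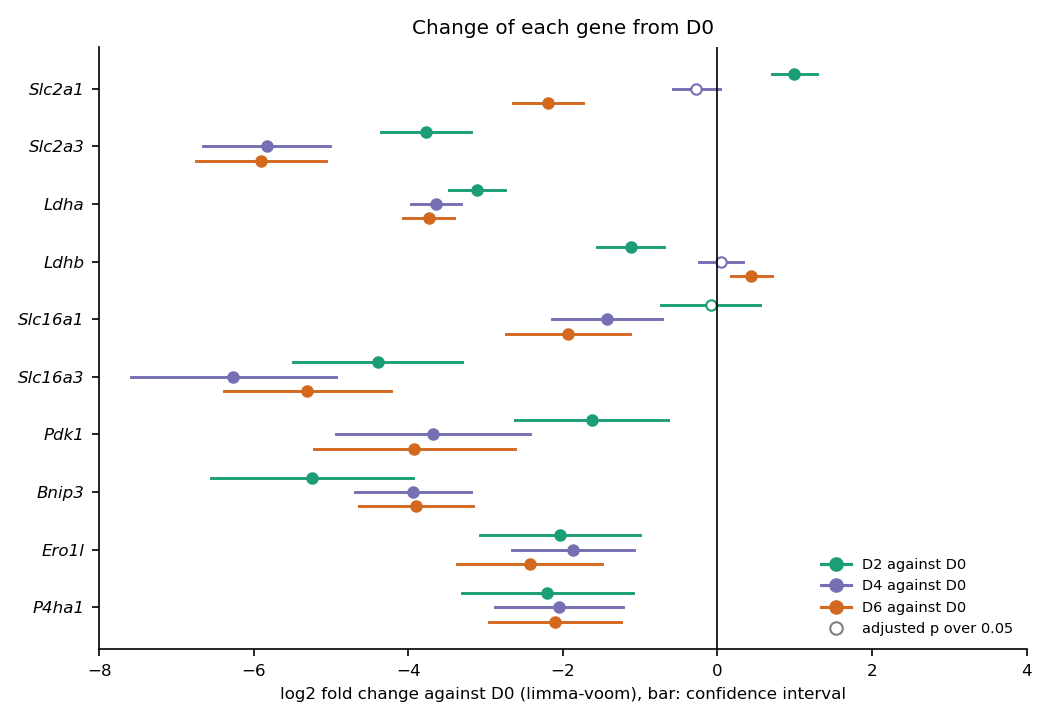
Log2 fold change of each gene (x axis) at D2, D4 and D6 against D0, from the limma-voom fit. Points are estimates, bars are 95% intervals, and open points mark an adjusted p over 0.05. Slc2a1 at D2 and Ldhb at D6 are the only filled points to the right of 0.

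The glucose transporters parted at D2. Slc2a3, known as the high-affinity glucose transporter of early embryos and neurons, was measured at 529, 536 and 541 CPM at D0 and at 52.0, 36.8 and 29.4 at D2. It was at 7.49, 10.9 and 6.38 at D4 and at 6.40, 11.7 and 5.13 at D6. The D0 libraries did not overlap with any later library. Its D2 log2 fold change, with SE, came to -3.77 ± 0.29 (adjusted p = 3.41e-15) and its D6 value to -5.90 ± 0.42 (adjusted p = 5.29e-17). From D2 to D4 it fell further by 2.06 ± 0.49 on the log2 scale (adjusted p = 0.00586), a call that was lost without D4 replicate 3 (adjusted p = 0.0545) and when thinned to the smallest library (0.108). Only 18 of the 839 reads at D0 had a mapping quality of at least 10, too few for a test of Slc2a3 on such reads. The step from D4 to D6 did not pass (adjusted p = 0.967).

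Slc2a1, the transporter found in most cell types, went the other way at first. Its level was 281, 221 and 185 CPM at D0 and 401, 464 and 461 at D2. All 3 D2 libraries lay above all 3 D0 libraries. The log2 fold change at D2 was 1.00 ± 0.15 (adjusted p = 7.22e-07), which is 1.99-fold. This call was lost with the reads of mapping quality 10 or more (log2 fold change 0.72, adjusted p = 0.239), which were 21.4% of the Slc2a1 reads at D0 and 16.1% at D2. Split by run, all kept reads gave 194 to 231 per 1000000 kept reads in the 3 D0 runs and 422 to 567 in the 3 D2 runs. These are the same reads of the same libraries, so the runs are not further replicates. The level then returned to 180, 195 and 179 at D4, where the difference from D0 did not pass (log2 fold change -0.28 ± 0.15, adjusted p = 0.183), and dropped to 38.4, 62.3 and 41.1 at D6. The D6 value was 4.57-fold lower than at D0 (log2 fold change -2.19 ± 0.23, adjusted p = 1.52e-11), and both steps, D2 to D4 (-1.27 ± 0.16, adjusted p = 4.92e-08) and D4 to D6 (-1.92 ± 0.23, adjusted p = 2.19e-08), passed the test. In the D4 to D2 comparison, 2.15% of all genes were higher and 1.1% lower, and in D6 against D4, 4.24% were higher and 4.04% lower. Of the 10 genes, Ldhb was higher and Slc2a1 and Slc2a3 were lower at D4 than at D2, and Slc2a1 alone passed between D4 and D6. The step from D2 to D4 also rests on how shared reads were treated: with mapping quality 10 or more, which 45.2% of the Slc2a1 reads at D4 had, its log2 fold change was 0.10 (adjusted p = 0.923), and that of D4 against D0 was 0.82 (adjusted p = 0.0455). Slc2a1 also passed at D4 against D0, as lower, without D0 replicate 3 (adjusted p = 0.0467) and with all tail quality tags (0.0314).

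Because Slc2a3 fell while Slc2a1 rose, the balance of the transporters changed. Slc2a1 made up 34.7%, 29.2% and 25.5% of the reads of the pair in the D0 libraries and 88.5%, 92.6% and 94.0% in the D2 libraries. The share was 95.7% ± 0.961 (SD, n = 3) at D4 and 86.3% ± 2.39 at D6. None of the later libraries overlapped with D0. The two-sided exact permutation test gave p = 0.10 for D2, D4 and D6 each against D0, the smallest value that 3 libraries against 3 allow. At D6 the pair held 70 reads. With mapping quality 10 or more, which 2.15% of the Slc2a3 reads of D0 had, the share was still higher than at D0 but by 24.5, 23.8 and 17.8 percentage points at D2, D4 and D6 (exact permutation p = 0.10, 0.10 and 0.30), against 61.9, 66.0 and 56.5 with all kept reads.

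Of the lactate dehydrogenase subunits, Ldha, whose protein favors the reduction of pyruvate to lactate, had the highest level of the 10 genes at D0, with 1292, 1349 and 1209 CPM. It was at 149, 125 and 176 at D2. The log2 fold change was -3.11 ± 0.18 (adjusted p = 4.77e-20), an 8.65-fold lower level. It was at 93.6, 101 and 108 at D4 and at 122, 115 and 61.6 at D6, where the log2 fold change was -3.73 ± 0.16 (adjusted p = 1.26e-25). Most of the loss was therefore measured between D0 and D2, and neither later step passed (adjusted p = 0.216 for D4 against D2 and 0.857 for D6 against D4).

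Ldhb, whose subunit is known from tissues that oxidize lactate, such as heart, followed another course. Its level was 211, 243 and 255 CPM at D0 and 81.8, 147 and 83.3 at D2. This fall was 2.18-fold (log2 fold change -1.12 ± 0.21, adjusted p = 0.000119). The level was back at 213, 262 and 247 at D4 and reached 346, 302 and 321 at D6. The rise from D2 to D4 passed the test (1.17 ± 0.22, adjusted p = 0.000245), D4 did not differ from D0 past the threshold (0.05 ± 0.14, 95% interval -0.24 to 0.33, adjusted p = 0.856), and D6 was 1.35-fold higher than D0 (0.44 ± 0.13, adjusted p = 0.00702). The 3 D6 libraries lay above the 3 D0 libraries. The D6 call is the weakest of the 10: it was lost without D0 replicate 1 (log2 fold change 0.32, adjusted p = 0.0885) and with limma-trend in place of voom (adjusted p = 0.0593), and most of all when thinned to the smallest library (log2 fold change 0.25, adjusted p = 0.422).

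Ldhb thus passed from the rarer to the commoner of the 2 transcripts. It made up 14.0%, 15.2% and 17.4% of the Ldha and Ldhb reads at D0, 35.5%, 54.1% and 32.1% at D2, 69.5%, 72.3% and 69.5% at D4 and 74.0%, 72.4% and 83.9% at D6. The groups of D2, D4 and D6 did not overlap with D0. Against D0 the share was 25.0 percentage points higher at D2, 54.9 at D4 and 61.2 at D6, each with an exact permutation p of 0.10, the smallest possible here. The D2 libraries spread most (SD 11.8 points, n = 3), on 158 reads of the pair. Mapping quality 10 or more was found for 767 of 2016 Ldha reads and 335 of 372 Ldhb reads at D0, and for 39 of 90 and 64 of 68 at D2, so that on such reads the D0 share was higher and Ldhb was already the commoner at D2. The share then exceeded that of D0 by 26.9, 47.2 and 56.7 percentage points on the 3 later days (exact permutation p = 0.10 each).

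**Figure D3:**
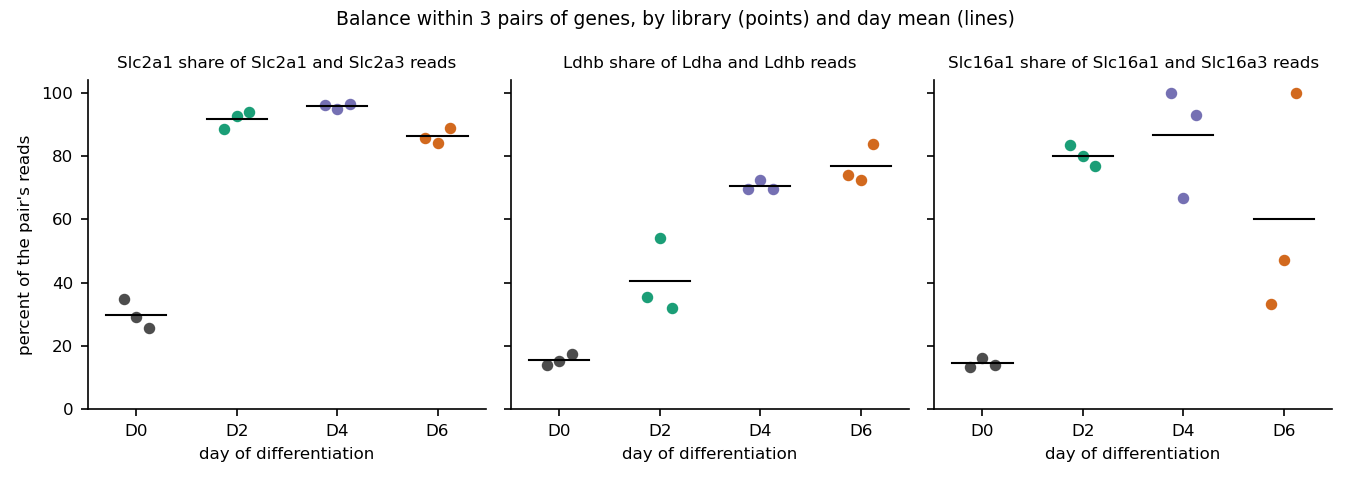
Share of the reads of a pair that belonged to the first-named gene (y axis, percent, from 0) in each library by day (x axis). Points are libraries and lines are day means. All later libraries lie above the D0 libraries in all 3 panels, and the Slc16a1 share at D4 and D6 spreads widely, on 26 and 28 reads of the pair.

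Of the lactate carriers, Slc16a3 had lost most of its reads at D2, when Slc16a1 had not changed past the threshold. Slc16a3, a lactate exporter known from strongly glycolytic cells, was at 340, 244 and 290 CPM at D0 and at 7.43, 11.0 and 14.7 at D2. From 450 reads at D0 it was left with 7 reads at D2, 4 at D4 and 13 at D6. The log2 fold change was -4.40 ± 0.54 (adjusted p = 1.43e-08) at D2 and -5.31 ± 0.54 (adjusted p = 1.03e-11) at D6, where it was -6.21 without D6 replicate 2 and -4.10 without D6 replicate 3. By the pooled reads, the D4 level was 85.8-fold lower than at D0, with an exact 95% interval for counting error of 33.3 to 316. The D4 reads were 0, 3 and 1 in replicates 1, 2 and 3, so this value rests mainly on replicate 2. Only 17 of the 450 reads at D0 had a mapping quality of at least 10, too few for a test of Slc16a3 on such reads.

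Slc16a1, the carrier of most tissues, was at 52.7, 46.9 and 46.7 CPM at D0 and at 37.2, 44.2 and 49.0 at D2. These groups overlapped, and the log2 fold change was -0.09 ± 0.32 (95% interval -0.73 to 0.55, adjusted p = 0.91). It was at 11.2, 13.1 and 27.6 at D4 and at 6.40, 15.6 and 12.8 at D6. The D6 log2 fold change was -1.93 ± 0.40 (adjusted p = 0.000106) and the D4 value was -1.43 ± 0.35 (adjusted p = 0.00159). The step from D2 to D4 did not pass (-1.34 ± 0.41, adjusted p = 0.0574), but it lay near the threshold and passed without D4 replicate 3 (adjusted p = 0.0415), without D6 replicate 2 (0.0487) and in 5 other settings (median-of-ratios scaling, library totals, at least 120 reads, limma-trend and all tail quality tags, adjusted p = 0.0372 to 0.0489). Thinned to the smallest library, Slc16a1 was called neither at D4 (adjusted p = 0.733) nor at D6 (0.387). Slc16a1 made up 13.4%, 16.1% and 13.9% of the reads of both carriers at D0 and 83.3%, 80.0% and 76.9% at D2, with an exact permutation p of 0.10. At D6 it was 33.3%, 47.1% and 100%, on 6, 17 and 5 reads. With mapping quality 10 or more, which all Slc16a1 reads but 3.78% of the Slc16a3 reads of D0 had, the share exceeded that of D0 by 14.3, 17.3 and 6.23 percentage points on the 3 later days (exact permutation p = 0.20, 0.10 and 0.80), against 65.6, 72.1 and 45.7 with all kept reads.

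Pdk1, the kinase gene that stands between glycolysis and pyruvate oxidation, was at 30.7, 48.6 and 66.2 CPM at D0. At D2 it was at 14.9, 11.0 and 14.7. The D2 log2 fold change of -1.63 ± 0.49 (adjusted p = 0.0224) rests on 8 reads, and the call was lost without D0 replicate 3 (adjusted p = 0.0576) and without any one of D2 replicate 1 (0.0562), replicate 2 (0.127) or replicate 3 (0.0712). It was also lost with mapping quality 10 or more (adjusted p = 0.0817). At D4 it had 4 reads and at D6 it had 3. The pooled D6 level was 19.9-fold lower than at D0 (exact 95% interval 6.57 to 98.7), and the fitted log2 fold changes were -3.68 ± 0.63 (adjusted p = 6.86e-06) at D4 and -3.92 ± 0.65 (adjusted p = 2.04e-06) at D6. The D4 and D6 calls held without each library in turn, but the value was -4.31 at D4 without D4 replicate 2 and -3.31 at D6 without D6 replicate 3, and -2.75 and -2.81 with limma-trend.

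Bnip3 had its lowest level at D2. It was at 241, 233 and 175 CPM at D0 and at 0, 14.7 and 0 at D2, where all 4 of its reads came from replicate 2. A count of 0 allows up to 22.3 CPM in D2 replicate 1 and 14.7 in replicate 3, so the D2 libraries cannot be told apart from the D4 ones at this depth. It was at 22.5, 10.9 and 10.6 at D4 and at 22.4, 9.73 and 12.8 at D6. The pooled D2 level was 33.0-fold lower than at D0 (exact 95% interval 12.8 to 122). The log2 fold change was -3.94 ± 0.37 (adjusted p = 2.10e-12) at D4 and -3.90 ± 0.37 (adjusted p = 1.06e-12) at D6, and the step from D2 to D4 did not pass (1.31 ± 0.74, adjusted p = 0.391).

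Among the 7 genes that were lower on every later day, the 2 genes of the ER fell least by D6. The D0 libraries held Ero1l at 63.6, 41.9 and 58.4 CPM and the D2 libraries at 22.3, 7.36 and 9.80. It stood at 18.7, 17.5 and 8.50 by D4 and ended at 12.8, 15.6 and 2.57. Its log2 fold change was -2.03 ± 0.51 (adjusted p = 0.00469) at D2, a call lost without D2 replicate 2 (adjusted p = 0.0662) and when thinned to the smallest library (log2 fold change -1.52, adjusted p = 0.172), and -2.43 ± 0.46 (adjusted p = 2.94e-05) at D6, or -1.78 without D6 replicate 3. The D0 libraries held P4ha1 at 41.7, 51.9 and 42.8 CPM and those of D2 at 0, 14.7 and 9.80. By D4 it stood at 11.2, 8.75 and 10.6, and on the last day at 6.40, 11.7 and 10.3. Its log2 fold change was -2.20 ± 0.55 (adjusted p = 0.00431) at D2, -2.05 ± 0.41 (adjusted p = 0.000115) at D4 and -2.10 ± 0.42 (adjusted p = 6.93e-05) at D6. The D2 call of P4ha1 was lost with mapping quality 10 or more (log2 fold change -1.66, adjusted p = 0.118), and its D2 value was -2.83 without D2 replicate 2. For both genes the D0 libraries lay above all later libraries, and no difference between later days passed.

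By their order of levels, Slc2a3, Ldha, Slc16a3, Pdk1, Bnip3, Ero1l and P4ha1 were highest at D0 and low on all later days. Slc2a1 was ordered D2, D0, D4, D6, of which only the neighbors D0 and D4 did not differ past the threshold. Ldhb was ordered D6, D4, D0, D2, of which the neighbors D6 and D4 (adjusted p = 0.0681) and D4 and D0 did not differ past it. Slc16a1 was ordered D0, D2, D4, D6, with no pair of neighbors past it.

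Likeness over the 12 libraries was taken as Pearson's r of log2 levels among 2819 genes with at least 20 reads per library on average, and is given as a description. The libraries share their day, so that r mostly reads the day means. Bnip3, Slc16a3 and Slc2a3 met the minimum of 20 reads mainly through D0, which held 339 of 376, 450 of 474 and 839 of 882 reads. Their r therefore rests on few reads on the later days. The genes most like Ldha were Aldoa (r = 0.996), Pkm (0.979) and Eno1 (0.977), all glycolytic enzymes. Those most like Slc2a3 were Pgk1 (0.989), Pgam1 (0.981) and Aldoa (0.973), again glycolytic enzymes. Slc16a3 was most like Ldha (0.950), Dnmt3b (0.946), a DNA methyltransferase of undifferentiated cells, and Sfrp1 (0.936). Bnip3 was most like Arpc2 (0.935), Eif4a1 (0.925) and Fabp5 (0.925). Slc2a1 was most like Tagln2 (0.960), Cdk1 (0.959), the kinase of mitotic entry, and Umps (0.958), an enzyme of pyrimidine synthesis. Ldhb was most like Stmn2 (0.966), 6330403K07Rik (0.932) and Crmp1 (0.931), of which Stmn2 and Crmp1 are neuronal genes. Ldha and Slc2a3 had r = 0.963 with each other, whereas Ldhb had r = -0.01 with Ldha and Slc2a1 had r = 0.33 with Ldha and -0.81 with Ldhb.

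The enzymes of glycolysis between the transporters and lactate dehydrogenase were described as a list of 15 genes, all tested. At D6, 12 were lower than at D0, 3 did not pass and none was higher, beside 18.1% lower and 19.4% higher over all genes, with a median log2 fold change of -2.42. The same numbers held at D2 (median -1.96), where 6.06% of all genes were lower, and at D4 (median -2.08), where 12.5% were. Aldoa, the aldolase of most tissues, fell from 1499 ± 105 (SD, n = 3) to 144 ± 31.4 CPM (log2 fold change -3.41 ± 0.14, adjusted p = 2.66e-27), and Pfkl, a phosphofructokinase, from 220 ± 8.76 to 26.0 ± 12.2 (-3.02 ± 0.29, adjusted p = 2.43e-12). The 3 that did not pass at D6 were Hk1 (log2 fold change 0.10), Pfkm (-0.36) and Eno2 (0.63), named here after their values were seen. Hk1 and Eno2 are the forms of hexokinase and enolase known from brain. Their relatives Hk2 (-2.65, adjusted p = 0.000146) and Eno1 (-2.98, adjusted p = 4.36e-25) were lower. So was Aldoc, the form of aldolase known from brain (-4.31, adjusted p = 1.38e-06), and so was Pfkp (-2.65, adjusted p = 0.000771). Eno2 had 46 reads in all 12 libraries together.

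Of 27 other genes known as HIF targets, 19 had enough reads for a test, of which 11 were lower at D2, 13 at D4 and 12 at D6, and none was higher on any day. Over all genes tested, 6.06%, 12.5% and 18.1% were lower and 4.72%, 12.9% and 19.4% higher on these days. Their median log2 fold change was -0.94, -1.02 and -1.01 at D2, D4 and D6 in turn. Ddit4, an inhibitor of mTORC1 induced by stress, fell from 479 ± 23.0 CPM at D0 to 10.2 ± 9.83 at D2 and was at 53.0 ± 13.1 at D6 (log2 fold change at D6 -3.12 ± 0.20, adjusted p = 1.62e-18). Fam162a fell from 379 ± 21.6 to 82.6 ± 13.7 at D6 (-2.16 ± 0.17, adjusted p = 3.02e-15). Like Bnip3, Ddit4 had a lower mean at D2 than at D4 or D6.

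Of the 12 genes of HIF and its control, 10 were tested. At D2, 1 was higher and 2 lower, at D4, 2 were higher and 1 lower, and at D6, 2 were higher and 2 lower. Over all genes, 4.72%, 12.9% and 19.4% were higher and 6.06%, 12.5% and 18.1% lower on these days, so that the D6 counts are near the shares over all genes. The 4 called at D6, named after their values were seen, were the prolyl hydroxylase genes Egln3 (log2 fold change -3.47, adjusted p = 4.63e-05) and Egln1 (-0.51 ± 0.20, adjusted p = 0.0332) as lower, and Vhl (1.13, adjusted p = 0.0013), whose protein marks hydroxylated HIF alpha subunits for degradation, and Arnt2 (2.31, adjusted p = 0.000335) as higher. Hif1a, the alpha subunit, was not called on any day (log2 fold change -0.83 with adjusted p = 0.0686 at D2, and -0.32 with adjusted p = 0.246 at D6). RNA levels do not measure HIF alpha protein, which is controlled by its degradation.

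Of 13 other genes of glucose transport, 3 were tested. None was called at D2, and Arrdc4, named after its values were seen, was higher at D4 (log2 fold change 0.85, adjusted p = 0.0306), beside 12.9% of all genes. At D6, when 18.1% of all genes were lower and 19.4% higher, only Txnip was called, as lower, from 117 ± 3.80 to 56.0 ± 24.7 CPM (-1.08 ± 0.24, adjusted p = 0.000236). Txnip is an arrestin-like protein known to promote the uptake of glucose transporters from the cell surface. The other Slc2a and Slc5a genes of the list had 0 to 69 reads in all 12 libraries together.

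Of 18 partners of lactate and pyruvate metabolism, 13 were tested. At D2, 1 was lower and none higher, at D4, 4 were lower and 3 higher, and at D6, 4 were lower and 2 higher. The shares of all genes were 6.06% lower and 4.72% higher at D2, 12.5% and 12.9% at D4, and 18.1% and 19.4% at D6. Emb, which encodes a partner that brings lactate carriers to the membrane, fell from 150 ± 13.7 to 38.6 ± 8.92 CPM at D6 (-1.91 ± 0.23, adjusted p = 1.98e-09), and Pdha1, a subunit of pyruvate dehydrogenase, from 183 ± 28.6 to 67.8 ± 3.84 (-1.41 ± 0.20, adjusted p = 8.07e-08). The other lower genes at D6 were Bsg (-0.65, adjusted p = 3.18e-05), another such partner of lactate carriers, and Dlat (-0.81, adjusted p = 0.00734), also a subunit of the pyruvate dehydrogenase complex. The higher ones, named after their values were seen, were Mpc1 (log2 fold change 3.29, adjusted p = 1.43e-09) and Mpc2 (1.45, adjusted p = 3.84e-05), which together form the carrier that brings pyruvate into mitochondria.

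Around Ero1l and P4ha1, 15 genes of ER oxidation and prolyl hydroxylation were listed, of which 13 were tested. At D6, 3 were lower and 2 higher, near the 18.1% and 19.4% of all genes, with a median log2 fold change of -0.18. Atf4, a stress-induced transcription factor, fell from 461 ± 51.0 to 185 ± 26.7 CPM (-1.30 ± 0.14, adjusted p = 8.68e-11), and P4hb, the other subunit of the prolyl hydroxylase, from 502 ± 40.1 to 348 ± 48.9 (-0.55 ± 0.12, adjusted p = 0.000186). Xbp1 rose by 0.99 ± 0.21 (adjusted p = 0.000173) and Calr by 0.36 ± 0.12 (adjusted p = 0.0138). Of 10 mitophagy partners of Bnip3, 8 were tested. Of these, 1 was higher at D2, 6 at D4 and 7 at D6, beside 4.72%, 12.9% and 19.4% of all genes, and none was lower. The D6 median was 1.01 on the log2 scale. Gabarapl2 rose from 141 ± 9.53 to 384 ± 63.3 CPM (1.41 ± 0.15, adjusted p = 4.67e-11) and Gabarap from 250.5 ± 4.52 to 564 ± 67.3 (1.15 ± 0.12, adjusted p = 5.80e-11). Both encode proteins of the autophagosome membrane. Bnip3 and its close relative Bnip3l (-0.86, adjusted p = 0.00095) were lower on the same day.

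**Figure D4:**
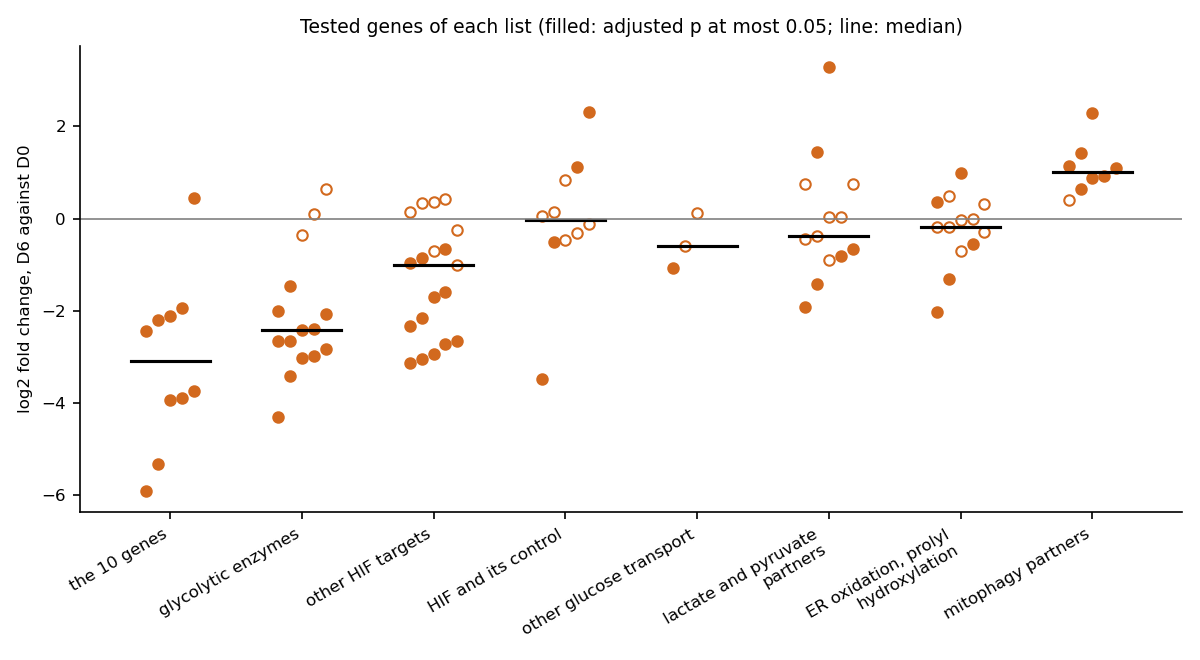
Log2 fold change at D6 against D0 (y axis) of the 10 genes and of the tested genes of the 7 lists (x axis). Points are genes, filled where the adjusted p was at most 0.05, and lines are medians. The medians are -3.08 for the 10 genes, -2.42 for glycolytic enzymes and -1.01 for other HIF targets, and 1.01 for mitophagy partners.

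Each read carries its own poly(A) tail estimate, so the tails of the transcripts that remained could be compared with D0. At D0 the mean of the library medians was 156 ± 5.86 nt for Ero1l (SD, n = 3), 127 ± 4.45 nt for Slc2a3, 123 ± 16.3 nt for Bnip3, 119 ± 13.6 nt for Slc16a1, 117 ± 2.05 nt for Ldhb, 114 ± 6.56 nt for Slc2a1, 99.4 ± 3.59 nt for Ldha and 86.8 ± 8.06 nt for Slc16a3. Among 3099 genes with at least 20 reads in each D0 library, whose median was 106 nt, 99.7% had a shorter mean of medians than Ero1l and 4.32% a shorter one than Slc16a3. Pdk1 and P4ha1 had too few reads to be placed in this range.

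Tails were tested for genes with at least 5 reads in all 6 libraries of a comparison, by limma on library values weighted by reads. This left Slc2a1, Slc2a3, Ldha, Ldhb and Slc16a1 at D2 and Slc2a1, Ldha, Ldhb and Bnip3 at D4 and D6. None of them passed in median length, in the share of tails of 30 to 90 nt or in the share of tails under 30 nt. Over all genes tested, 0.99%, 1.65% and 2.96% were called in median length at D2, D4 and D6, 0.582%, 1.22% and 1.5% in the share of 30 to 90 nt, and 0.0873%, 0.206% and 0.29% in the share under 30 nt. Without adjustment, 5 of the 39 tests had p under 0.05.

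Those tests were on Slc2a1 at D2, Ldhb at D4 and Bnip3 at D4. For Slc2a1 the library medians were 107, 115 and 120 nt at D0 and 92.7, 99.0 and 105 nt at D2, a difference of -14.1 ± 6.53 nt (95% interval -27.5 to -0.61, adjusted p = 0.468). Its share of tails of 30 to 90 nt was 32.8%, 33.3% and 26.3% at D0 and 48.1%, 40.5% and 38.3% at D2 (10.4 ± 4.01 points, adjusted p = 0.279). The D2 libraries had the shorter tails for both measures, without overlap. For Ldhb the medians were 116, 116 and 120 nt at D0 and 96.6, 107 and 98.9 nt at D4 (-15.9 ± 5.99 nt, adjusted p = 0.33), and its share of 30 to 90 nt was higher by 9.60 ± 4.02 points (adjusted p = 0.369). For Bnip3 the share of 30 to 90 nt was lower by 22.5 ± 10.6 points at D4 (adjusted p = 0.478) on 16 reads. The Ldha medians were 95.5, 100.1 and 103 nt at D0 and 114, 98.5 and 127 nt at D6 (9.58 ± 7.21 nt, 95% interval -5.28 to 24.4, adjusted p = 0.587), which overlapped. The median over all mRNA reads was 97.1 to 102 nt in the D0 libraries, 91.5 to 93.3 nt at D2, 88.3 to 91.5 nt at D4 and 91.6 to 95.0 nt at D6. Taken per gene, the difference from D0 in median length had another course. Its median over all genes tested was -2.99 nt at D2, -0.81 nt at D4 and 5.32 nt at D6. The part of either shift in the differences of these genes was not tested.

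**Figure D5:**
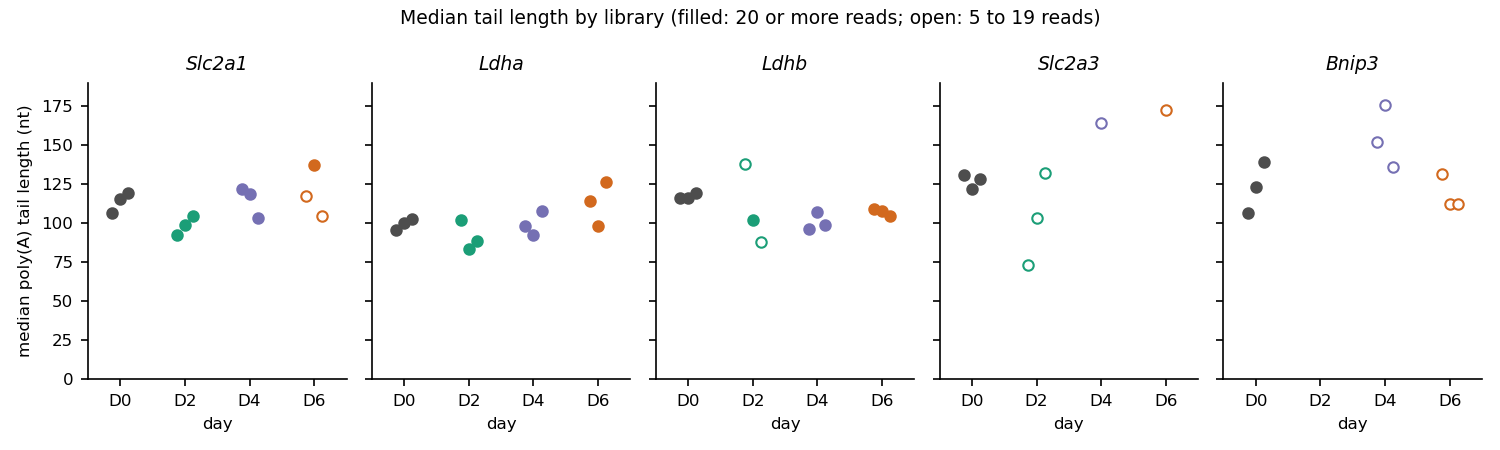
Median poly(A) tail length in nt (y axis, from 0) of 5 genes in each library with at least 5 reads, by day (x axis). Filled points rest on 20 or more reads and open points on 5 to 19. The Slc2a1 medians lie between 92.7 and 105 nt at D2 and between 107 and 120 nt at D0.

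The reads also show where each transcript ended. On the transcript with the most reads, the commonest end of all 10 genes lay in the annotated 3' UTR. It was at or within 2 bases of the annotated end for Ldha and Ldhb and 15 bases before it for Slc2a3, but 653 bases before it for Slc2a1, 1204 for Slc16a1, 1872 for Pdk1 and 2093 for Slc16a3. For Slc2a1, Pdk1 and Slc16a3 this position is the annotated end of another, shorter transcript of the same gene. For Ero1l, Bnip3 and P4ha1 the commonest end lay 111, 128 and 290 bases before the annotated end. Within 20 bases of the commonest end lay 61.8% of the Pdk1 and 50.4% of the Ero1l reads, and 83.3% (P4ha1) to 99.3% (Ldhb) for the other genes. For Bnip3 the 90th percentile of the distance was 651 bases at D0 and 135 at D6, on 17 reads at D6. For Slc2a1, Slc16a1 and Slc2a3 the median distance was the same on all 4 days, with 653, 1204 and 15 bases. The Ldhb median was 2 bases at D0 and 1 at D2, and the most-read transcripts of Pdk1 and Slc16a3 had too few reads at D2 and D4 for a median. In Slc2a1, Slc16a1 and Slc2a3 the level changed while the median end stayed where it was. The last 30 bases before the commonest end are shown for 2 genes whose commonest end was at or near the end of their most-read transcript and 2 where it lay further upstream, with the polyadenylation signals AATAAA and ATTAAA, searched on the transcript strand, in capitals.
Ldha: tgtcatgccaAATAAAaccttgaacagtga
Slc2a3: ttctgttttgaAATAAAacttctgaatgta
Slc16a1: aAATAAAacatttattttatttttagaaaa
Slc2a1: aagcagatataaatggctggtttttagaaa
The AATAAA of Ldha began 20 bases before the end, that of Slc2a3 19 bases and that of Slc16a1 29 bases, whereas neither signal was in the Slc2a1 window.

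The transcripts of the 10 genes lie on GRCm38 (mm10), where the positions in the deposited table were equal to those of GENCODE vM21. Ldha was read mainly as a transcript at chr7:46845839-46855627 on the plus strand (73.2% of its reads), Ldhb at chr6:142490249-142507957 on the minus strand (95.5%), Slc2a3 at chr6:122727809-122742745 on the minus strand (94.1%), and Bnip3 at chr7:138890836-138909506 on the minus strand (100%). Slc2a1 was split between a coding transcript at chr4:119108711-119137983 on the plus strand (64.9%) and 1 annotated as a target of nonsense-mediated decay (35.1%), and Slc16a3 between 3 coding transcripts (40.1%, 31.0% and 28.9%), of which the most-read one lies at chr11:120949081-120960868 on the plus strand. Slc16a1 was read only as the transcript at chr3:104638668-104658462 on the plus strand and Ero1l only as that at chr14:45283087-45318572 on the minus strand. Pdk1 was read mainly at chr2:71873224-71903858 on the plus strand (73.9%), while P4ha1 was split between a transcript at chr10:59323368-59372251 on the plus strand (47.1%) and 1 at chr10:59323296-59373304 (45.1%). Reads of the Slc2a1 decay transcript had mapping quality 0 in 99.7% of cases, so the 2 transcripts share their 3' sequence and the split is uncertain. The coding share of Slc2a1 was 65.6% ± 7.73 before differentiation (SD, n = 3), 56.9% ± 8.75 at D2, 77.0% ± 8.11 on D4 and 57.6% ± 8.42 by D6. Reads were longer at D4, with a median of 59.5% of the coding Slc2a1 transcript aligned there against 32.2% at D0, 31.0% at D2 and 27.1% at D6, and the part of read length in the split was not tested. Counts summed over a gene's transcripts, as used in the tests above, do not depend on this split.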

How the data were processed

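Direct RNA reads of 12 P19 libraries were analysed. The authors called bases with Guppy, assigned barcodes with Deeplexicon, aligned reads with Minimap2 2.20 to mm10 transcripts of GENCODE vM17 and estimated tails with Nanopolish. Their deposited table gives 1 line per read with tail length in nt, the mapping quality score and the barcode confidence as a fraction. A second deposited table, with the log2 fold changes and adjusted p-values of the authors' DESeq2 comparisons, was not used. Of 6306434 lines, 69 malformed lines and 289260 lines (4.59%) with no assigned barcode were left out, and PASS reads of class mRNA were tallied per gene and library. Pseudogenes took 0.826% of kept reads and mitochondrial genes 6.77%.

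Genes with at least 30 reads were fitted with limma 3.58.1 (voom, TMM scaling, all 12 libraries, Benjamini-Hochberg adjustment, threshold 0.05) in R 4.3.3. Fold changes are on the voom scale, log2 CPM with 0.5 added to each read count. Tails were fitted with limma on library values weighted by reads up to 100. Shares were tested by exact permutation over libraries (Python 3.11.15). Pooled ratios carry exact binomial (Clopper-Pearson) intervals and floors of 3 reads, which cover counting error only. No 2 libraries of a day were alike within sampling noise. The fits were tested on simulated data. Alternatives are listed after the results. All members were described, and from each list at most 2 rises and 2 falls at D6 without overlap and with at least 20 reads per library on average were named, unless said otherwise. The members, lists and tests were chosen with earlier results of these data known.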

Additional observations from a re-analysis of the deposited data

How the results depend on the processing

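Of 36 log2 fold changes of the 10 genes given above, recomputed under 917 alternative settings in all (scaling, filters, read selection, model, left-out libraries), 883 kept their direction and their side of the threshold, as did all 122 settings of the 7 tail differences given. TMM centres the data on the bulk of genes: with library totals the median of all genes tested shifted from -0.04 to 0.10 at D2 and from 0.02 to 0.17 at D6, and no call against D0 changed. The members called at D2 were 4 in place of 9 with mapping quality of at least 10, and those at D4 against D2 were 1 in place of 3. Thinned to the smallest library, 5 in place of 8 were called at D4 and 6 in place of 10 at D6. At D6 against D4, 2 in place of 1 were called with library totals and with at least 120 reads. Signs turned for Ldhb at D4 (-0.17 thinned, and -0.042 to 0.089 without 1 library, below 0 without D0 replicate 1 or D4 replicate 2), Slc16a1 at D2 (0.056 with library totals and 1.20 thinned) and Slc2a1 with mapping quality of at least 10 (0.82 at D4 against D0 and 0.10 at D4 against D2). The cause was not tested. With mapping quality of at least 10, the share of Slc2a1 exceeded its D0 value by 24.5, 23.8 and 17.8 points on the 3 later days, that of Ldhb by 47.2 points on D4 and that of Slc16a1 by 14.3, 17.3 and 6.23 points. In that setting Slc2a1 at D2 (adjusted p = 0.239), P4ha1 at D2 (0.118) and Pdk1 at D2 (0.0817) lost their calls, and Slc2a3 and Slc16a3 had too few reads for a test.

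The replicate numbers were not taken to pair the libraries, since the labels name nothing that same-numbered libraries share and only 4 of 18 same-numbered pairs had deviations from their day means that correlated above 0.1 (range -0.13 to 0.18). A hint of pairing in the data is that 10 of 12 libraries correlated best with their own number. With the replicate block the members called were 9, 8 and 10 at D2, D4 and D6 against D0, 3 at D4 against D2, 1 at D6 against D4 and 0 in the tails, as without it, and the exact sign-flip test of the paired shares gave p = 0.25, the smallest possible. Over all genes, the block moved a count by over 1.5 times only for the share of tails under 30 nt at D6 (10 genes in place of 16).

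Counts over all genes moved more. Over the alternatives, the genes called were 363 to 1697 (1009 as given) at D2, 679 to 2917 (2384) at D4, 1239 to 4060 (3512) at D6, 145 to 572 (304) at D4 against D2 and 198 to 1006 (775) at D6 against D4, lowest when thinned. In median tail length they were 3 to 61 (34) at D2, 22 to 105 (88) at D4 and 37 to 165 (163) at D6, in tails of 30 to 90 nt 3 to 33 (20), 4 to 78 (65) and 3 to 109 (83), and in tails under 30 nt 0 to 8 (3), 4 to 21 (11) and 6 to 24 (16). Depth limits the members most at D2, where 3 reads are worth 11.0 to 22.3 CPM.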
